A study of Mus musculus with 4 samples.

Results

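Binding of SOX3 was described around 9 genes of the LIM-homeodomain family that mark neuronal subtypes, namely Lhx1, Lhx5, Lhx6, Lhx8, Lhx9, Isl1, Isl2, Lmx1a and Lmx1b, out of 22367 protein-coding genes in the GENCODE vM1 annotation of the mouse genome (mm9). The genes were listed by name, without the paralogs Lhx2, Lhx3 and Lhx4, by a rule that used no peak, although earlier results of these data were known, and each was taken with its gene body and 100 kb to each side, here called its window. Cells of the mouse embryonic stem cell line R1 were differentiated to neural progenitor (NP) cells by growth for 4 days in serum-free N2B27 medium, and SOX3 ChIP-seq was carried out with a goat antibody on 3 biological replicates of this 1 group. An input sample prepared without antibody was the background for the authors' peak calls and was not analysed here. Of 67455 peaks in the 3 lists, 80 lay in the 9 windows, 25 from replicate 1, 9 from replicate 2 and 46 from replicate 3. These merged into 62 regions, of which 7 held a common site, a stretch covered by a peak of each replicate. The lists give positions and no expression values, so the NP identity of the cells could not be checked against marker genes.

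LIM-homeodomain proteins carry a pair of LIM domains, which bind cofactors such as LDB1, in front of a homeodomain that binds DNA at words such as TAATTA. Combinations of these factors set the identity of postmitotic neurons, among them motor neurons, cortical interneurons, cholinergic neurons and dopaminergic neurons, so that many of them are switched on as progenitors leave the cell cycle. SOX3 is a SOXB1 protein of dividing neural progenitors, and proteins of this class bind short A/T-rich words and often act beside POU factors, which recognise an octamer.

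The sequences of the common sites are given from the mm9 reference, plus strand, 5′ to 3′, since the words found in them are described with the binding data. Capitals mark the SOX words AACAAA and, with a different last base, AACAAT, then the related pair that opens with G, which are GACAAA and its counterpart GACAAT, the POU octamers written ATGCAAAT or alternatively ATGCTAAT, and the longer SOX-POU composite word that overlaps the octamer, each on either strand. The Lmx1b site is cut to 300 bases around its middle, and the Lhx9 and Isl2 sites, which are tandem repeats, are given by an excerpt. The last sequence is a region with peaks of 2 replicates only, shown because it holds the composite word. The SOX part of that word was matched loosely, so it need not be a SOX word.
Lhx5 site 50.5 kb upstream, chr5:120831267-120831531: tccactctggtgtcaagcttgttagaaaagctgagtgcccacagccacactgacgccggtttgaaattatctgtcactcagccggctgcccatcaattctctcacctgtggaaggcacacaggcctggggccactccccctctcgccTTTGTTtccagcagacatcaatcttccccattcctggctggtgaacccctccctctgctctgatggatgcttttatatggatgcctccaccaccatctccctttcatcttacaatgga
Lhx5 site 7.63 kb upstream, chr5:120874131-120874405: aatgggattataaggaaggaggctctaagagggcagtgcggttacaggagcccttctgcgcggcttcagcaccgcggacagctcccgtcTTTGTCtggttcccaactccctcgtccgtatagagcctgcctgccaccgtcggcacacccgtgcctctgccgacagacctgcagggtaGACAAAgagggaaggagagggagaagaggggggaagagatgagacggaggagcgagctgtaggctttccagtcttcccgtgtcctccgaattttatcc
Lhx6 site 93.4 kb upstream, chr2:36054254-36054483: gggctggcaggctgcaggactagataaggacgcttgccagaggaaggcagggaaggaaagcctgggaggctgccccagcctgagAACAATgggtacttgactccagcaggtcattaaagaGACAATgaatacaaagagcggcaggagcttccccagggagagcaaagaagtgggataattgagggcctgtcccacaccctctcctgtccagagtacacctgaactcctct
Lmx1b intronic site, chr2:33436192-33436491: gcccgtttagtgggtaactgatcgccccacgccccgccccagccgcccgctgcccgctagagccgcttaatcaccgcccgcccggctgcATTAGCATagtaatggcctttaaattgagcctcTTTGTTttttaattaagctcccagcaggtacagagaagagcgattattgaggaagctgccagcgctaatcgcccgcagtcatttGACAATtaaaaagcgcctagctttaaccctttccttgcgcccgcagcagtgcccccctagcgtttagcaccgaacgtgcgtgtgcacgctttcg
Lmx1a site 89.9 kb upstream, chr1:169529357-169529591: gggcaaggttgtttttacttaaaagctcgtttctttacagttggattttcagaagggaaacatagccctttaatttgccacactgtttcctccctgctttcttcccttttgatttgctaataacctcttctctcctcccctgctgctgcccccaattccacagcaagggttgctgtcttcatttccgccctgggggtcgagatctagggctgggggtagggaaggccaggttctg
Lhx9 site, 4 periods, chr1:140711953-140712076: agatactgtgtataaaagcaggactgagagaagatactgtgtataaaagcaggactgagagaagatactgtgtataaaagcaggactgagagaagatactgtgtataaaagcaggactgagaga
Isl2 site, excerpt, chr9:55421148-55421307: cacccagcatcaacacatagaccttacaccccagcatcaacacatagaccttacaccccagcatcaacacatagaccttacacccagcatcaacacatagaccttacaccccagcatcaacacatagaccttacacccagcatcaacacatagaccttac
Lhx5 region of replicates 1 and 3, chr5:120859552-120859794: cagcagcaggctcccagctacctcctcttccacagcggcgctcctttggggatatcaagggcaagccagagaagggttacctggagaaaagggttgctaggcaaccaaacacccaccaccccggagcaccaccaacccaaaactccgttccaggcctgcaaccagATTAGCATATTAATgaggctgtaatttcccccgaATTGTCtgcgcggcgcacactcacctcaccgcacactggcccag
SOX words were present in the first 4 of these sequences and in the last, while the Lmx1a, Lhx9 and Isl2 sites held none of the words searched.

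The 3 lists differed in length and in how alike their peaks were. Replicate 1 had 18816 peaks, replicate 2 had 8096 and replicate 3 had 40543, and 5537 common sites were found in all. This count follows the definition used here and is lower than the number of common sites that the authors reported. The reason for the difference was not traced. Replicates 2 and 3 began at the same base in 34.5% of 7815 overlapping pairs of peaks, against 0.922% of 5637 pairs for replicates 1 and 2 and 1.63% of 8269 pairs for replicates 1 and 3, and the cause was not tested. Replicates 2 and 3 may therefore not be independent, in which case a common site, or a region of replicates 2 and 3, rests on fewer independent samples than it has replicates. Sites common to replicates 1 and 3, with or without replicate 2, numbered 9 in the windows of 6 of the 9 genes (55.0% of all genes had one), and those common to replicates 1 and 2, with or without replicate 3, numbered 7, also at 6 genes (42.9%). The score of a peak is 10 times the negative log10 of its p-value, so the authors' threshold of 1e-05 corresponds to a score of 50, and it has no error of its own. It moves with library depth, which is unknown because the lists hold no read counts, so each score was set only against others of its own list, as a rank or as a percentile (the share of the peaks in that list with a lower score).

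Common sites were found in the windows of 6 of the 9 genes, namely Lhx5, Lhx6, Lhx9, Isl2, Lmx1a and Lmx1b, and in none of those of Lhx1, Lhx8 and Isl1. Of all protein-coding genes, 42.1% had a common site in a window built in the same way, and the count for the 9 genes was not tested against it. Lhx5 was the 1 gene of the 9 with more than 1 common site, a state shared by 16.2% of all genes. No common site lay within 2000 bp of a start of any of the 9 genes, against 4.80% of all genes. At the other end, Isl1 had no peak of any replicate in its window, as did 2.79% of all genes. With 9 genes, 1 gene more or less moves these counts widely, and no test was run on them.

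The windows were of ordinary length, with a median of 223 kb (207 to 360 kb) against 215 kb for all genes. They covered 2.15 Mb and held 3.26 common sites per Mb, while the windows of all protein-coding genes covered 1862 Mb and held 2.53 per Mb. Merged regions of any replicate were 28.9 per Mb in the 9 windows and 22.2 per Mb in all. The distribution of common sites per window for the 9 genes, with a median of 1 against 0 for all genes, stopped at 2, whereas 1.25% of all genes had 6 or more.

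**Figure D1:**
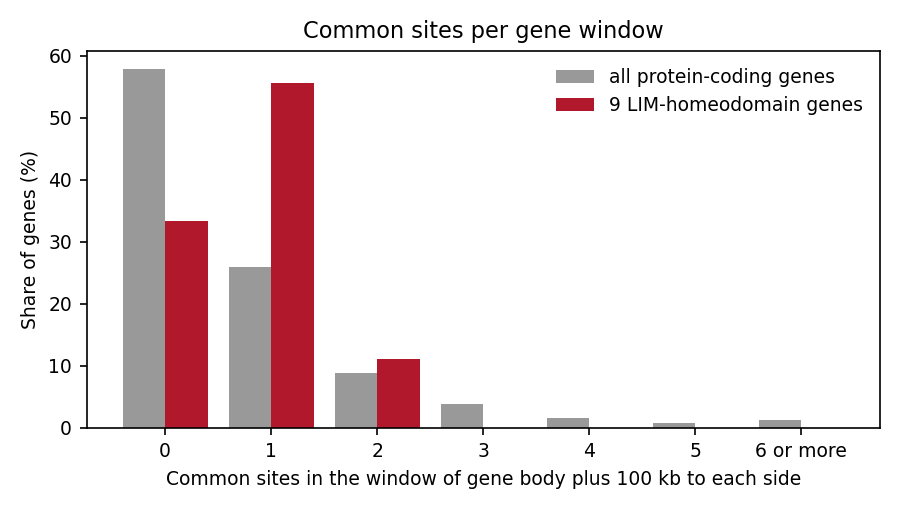
Bars give the share of genes in % (y axis) by the number of common sites in the window (x axis), for all 22367 protein-coding genes (grey) and the 9 LIM-homeodomain genes (red). Of all genes 57.9% had no common site, 25.9% had 1 and 8.76% had 2, while 3, 5 and 1 of the 9 genes had 0, 1 and 2.

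Most regions in the 9 windows came from 1 replicate alone. Peaks of replicate 3 alone made up 35 of the 62 regions (56.5%, against 58.7% of 51271 regions in the genome), and peaks of replicate 1 alone made up 16 (25.8%, against 20.7%). The 7 regions with all 3 replicates were 11.3% of the total, against 10.5% in the genome. Replicates 1 and 3 shared 2 further regions, and replicates 2 and 3 shared 2. The makeup of the 9 windows was thus close to that of the whole lists. The peaks of replicate 1 alone had scores of 51.5 to 97.2, which are percentiles of 4.20 to 61.6 in that list (median 31.1). Those of replicate 3 alone had scores of 50.7 to 96.0, which are percentiles of 5.17 to 79.5 (median 36.5). Most single-replicate peaks thus ranked in the lower part of their list, but the highest of replicate 3, in an intron of Lmx1a, ranked about level with the replicate 3 peak of the Lhx9 common site (percentile 79.9). By location, 33 regions were intergenic, 20 were intronic, 8 were at promoters (within 2000 bp of a start of a protein-coding gene) and 1 was exonic, and 16 of the 62 lay in or at the LIM-homeodomain gene itself.

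**Figure D2:**
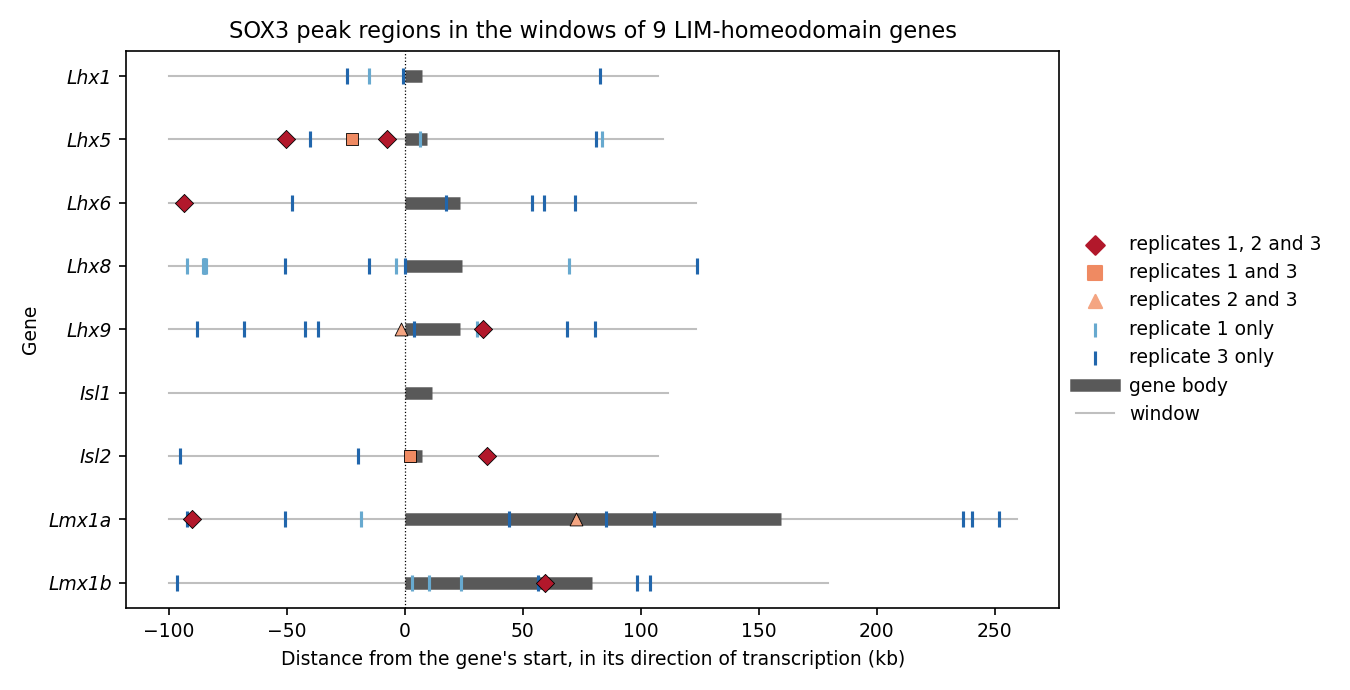
Each line is the window of 1 gene, with the distance from the gene's start in kb on the x axis, in the direction of transcription, the gene body as a dark bar and each region as a mark coded by the replicates with a peak in it. The 7 regions of all 3 replicates (red diamonds) lay from 93.4 kb upstream (Lhx6) to 59.7 kb downstream (Lmx1b) of the starts, and the line of Isl1 has no mark.

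**Figure D3:**
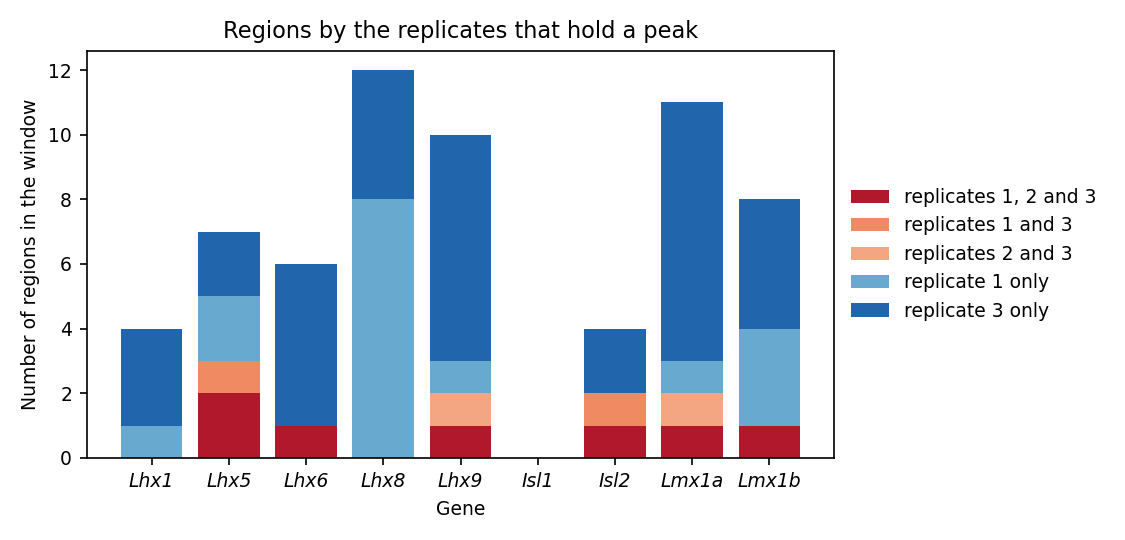
Stacked bars give the number of regions in the window of each gene (y axis), coloured by the replicates that hold a peak. Totals ran from 0 at Isl1 to 12 at Lhx8, whose regions were all of replicate 1 alone (8) or replicate 3 alone (4).

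By its lowest percentile over the 3 lists, the highest of the 7 common sites was in an intron of Lmx1b, which acts in dorsal limb patterning and in dopaminergic and serotonergic neurons. Lmx1b (ENSMUSG00000038765) lies at chr2:33416485-33496031 on the minus strand. Its common site at chr2:33436176-33436506 was 331 bp wide, 59.7 kb downstream of the gene's start and 51.4 kb from the nearest start of an annotated Lmx1b transcript. The scores were 309 in replicate 1 (rank 1494), 151 in replicate 2 (rank 1738) and 231 in replicate 3 (rank 2158), which are percentiles of 92.1, 78.5 and 94.7. Of the 7 sites, this was the 1 whose score was above the median of the common sites in each list, which was 179, 108 and 189. Its sequence held an AACAAA word, a GACAAT word, an ATGCTAAT octamer and the homeodomain word TAATTA, the last at chr2:33436323-33436328. The other 7 regions in the Lmx1b window had a peak of 1 replicate each, and the one closest to the start was intronic at 3.06 kb, with a score of 63.05 in replicate 1.

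Its paralog Lmx1a, a determinant of midbrain dopaminergic neurons and of the roof plate, differed in where its binding lay. Lmx1a (ENSMUSG00000026686, chr1:169619370-169778872, plus strand) had 11 regions in the longest of the 9 windows. Its 1 common site, chr1:169529357-169529591, was 89.9 kb upstream of Lmx1a but 863 bp from a start of Rxrg, which encodes a retinoid X receptor, and so was at the promoter of that gene. The scores were 85.9, 83.3 and 166 in replicates 1, 2 and 3, with percentiles of 55.7, 50.9 and 91.5, and the sequence held none of the words searched. Inside the gene, an intronic region at chr1:169691992-169692223, 72.7 kb from the start, had peaks of replicates 2 and 3, with scores of 50.7 (percentile 2.54) and 101 (percentile 81.4). It held 2 AACAAA words. The region closest to the start of Lmx1a, 18.4 kb upstream, had a peak of replicate 1 alone with a score of 55.5, and 84.4% of its 50-base sequences were multi-copy. A further 3 intronic regions, at 44.3, 85.3 and 106 kb, had peaks of replicate 3 alone, with scores of 71.5, 96.0 and 92.6. Thus no intronic region of Lmx1a had a peak of replicate 1, whereas the Lmx1b intronic site had peaks of all 3 replicates.

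Lhx5, which acts in hippocampal and hypothalamic development and in dorsal interneurons, had 2 common sites upstream of its start with 2 further regions between them. Lhx5 (ENSMUSG00000029595) lies at chr5:120881895-120891466 on the plus strand, and both sites were intergenic with Lhx5 as the nearest protein-coding start. The nearer of both sites, chr5:120874131-120874405, was 7.63 kb upstream, with scores of 136, 139 and 244 (ranks 4733, 1956 and 1989) and percentiles of 74.8, 75.8 and 95.1. Here the peaks of replicates 2 and 3 began at the same base. The sequence held 2 GACAAA words in opposite orientation. The other site, chr5:120831267-120831531, was 50.5 kb upstream, with scores of 172, 96.3 and 159 (ranks 3467, 3292 and 3682) and percentiles of 81.6, 59.3 and 90.9. It held 1 AACAAA word. The peaks of replicates 2 and 3 at this site also had nearly the same bounds, 120831265-120831622 and 120831267-120831620. Between the sites, a region 40 kb upstream had a peak of replicate 3 alone with a score of 61.8, and chr5:120859552-120859794 had peaks of replicates 1 and 3, with scores of 92.6 and 52.5, at 22.2 kb upstream. This region had no peak of replicate 2, and it held a GACAAT word and the SOX-POU composite word at chr5:120859718-120859730 on the minus strand. None of the 7 common sites of the 9 genes held the composite word. The region closest to the start of Lhx5 was intronic at 6.33 kb, with a score of 53.98 in replicate 1 alone.

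Lhx1, the closest relative of Lhx5, with roles in head formation, Purkinje cells and motor axon guidance, had no common site in its window. Lhx1 (ENSMUSG00000018698) lies at chr11:84331479-84338923 on the minus strand. It had 4 regions of 1 replicate each, 3 of them from replicate 3, and no peak of replicate 2. The region closest to its start was a promoter peak of replicate 3 alone, 0.692 kb upstream, with a score of 51.8, just above the threshold of 50. The nearest common site was 248 kb downstream of the start. The windows of this pair thus held 0 common sites at Lhx1 and 2 at Lhx5.

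Lhx6 and Lhx8 are neighbours in function in the ventral forebrain, where Lhx6 acts in cortical interneurons and Lhx8 in cholinergic neurons. Lhx6 (ENSMUSG00000026890, chr2:35937470-35960928, minus strand) had 6 regions and 1 common site, chr2:36054254-36054483, which lay 93.4 kb upstream near the edge of the window. The start nearest to it was that of Ptgs1, a cyclooxygenase gene, 31.6 kb away. The scores were 207, 82.1 and 144 (ranks 2705, 4059 and 4246), with percentiles of 85.6, 49.8 and 89.5, and the site held an AACAAT and a GACAAT word. The other 5 regions of Lhx6 had peaks of replicate 3 alone, and the one closest to the start was intronic at 17.7 kb, with a score of 52.4.

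Lhx8 (ENSMUSG00000028201, chr3:153969260-153993615, minus strand) had 12 regions, the highest number of the 9 genes, and no common site. Of these, 8 were peaks of replicate 1 alone and 4 of replicate 3 alone, with no peak of replicate 2. In 7 of the 8 replicate 1 regions, more than 50% of the 50-base sequences occurred in more than 1 place of the reference, and 5 of these lay close together between 84.2 and 85.4 kb upstream. The remaining one, 3.69 kb upstream and 1.23% multi-copy, had a score of 97.2. The region closest to the start, 0.129 kb downstream, was a promoter peak of replicate 3 alone with a score of 55.1. None of the regions at Lhx8 was shared by replicates, and the nearest common site was 143 kb upstream of the start.

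Isl1 and Isl2, which specify motor neurons and, for Isl2, a class of retinal ganglion cells, differed in that Isl1 had no peak in its window while Isl2 had 4 regions, 1 of them a common site. Isl1 (ENSMUSG00000042258, chr13:117088478-117099896, minus strand) lay in a stretch of 233 kb, chr13:116979759-117212483, with no peak in any list. The peak closest to the gene body was 114 kb away in replicate 1, 666 kb in replicate 2 and 109 kb in replicate 3, and the nearest common site was 678 kb from the start. The window held no other protein-coding gene and no unknown bases, and its GC content was 39.0%. Without read counts, binding below the threshold cannot be told apart from no binding there.

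Isl2 (ENSMUSG00000032318, chr9:55386479-55393987, plus strand) had 4 regions. The region closest to its start, chr9:55388629-55388971, was 2.32 kb downstream of the gene's start and 155 bp from the start of an annotated Isl2 transcript. It scored 215 in replicate 1 (rank 2565, percentile 86.4) and 64.1 in replicate 3 (percentile 50.8), had no peak of replicate 2, and held an AACAAT word. Its common site, chr9:55421148-55421401, was 34.8 kb downstream in an intron of Scaper, 16.7 kb from the nearest start of that gene. The scores there were 55.3, 131 and 230, with percentiles of 18.4, 73.6 and 94.6, so that replicate 1 stood far below the others. The peaks of replicates 2 and 3 were 842 and 838 bp wide with nearly the same bounds, 55420880-55421721 and 55420882-55421719. The site was a tandem repeat of a unit of 26 to 27 bp, of which the most frequent 20-base sequence occurred 9 times.

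Lhx9, which acts in dorsal commissural interneurons and in gonad formation, had 10 regions and 1 common site. Lhx9 (ENSMUSG00000019230) lies at chr1:140721763-140745153 on the minus strand. The common site, chr1:140711953-140712156, was intergenic, 33.1 kb downstream of the start and 9.71 kb past the end of the gene. It scored 136, 97.5 and 96.9 (ranks 4745, 3236 and 8140), with percentiles of 74.8, 60.0 and 79.9. This site was also a tandem repeat, of 6.58 copies of a 31 bp unit. At the gene itself, a promoter region 1.74 kb upstream, chr1:140746806-140746974, had peaks of replicates 2 and 3 with scores of 64.7 and 108 and held a CAGCTG E-box. It had no peak of replicate 1, and the peaks of replicates 2 and 3 began at the same base.

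**Figure D4:**
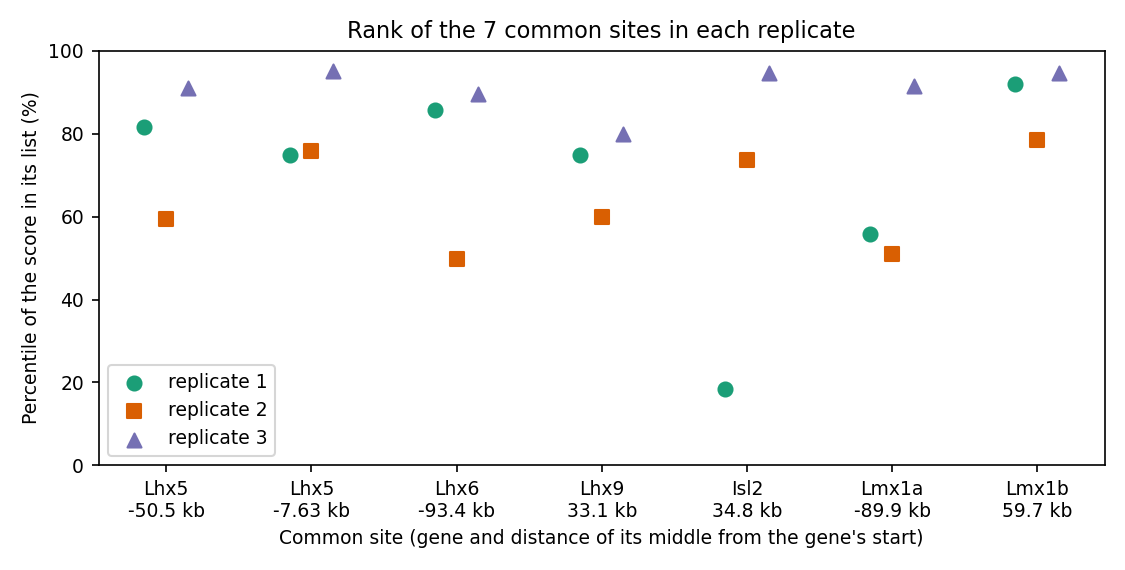
Points give the percentile of the score in its own list (y axis, %) for the 7 common sites (x axis, gene and distance from its start), 1 point per replicate. Replicate 3 percentiles lay between 79.9 and 95.1, while those of replicate 1 ran from 18.4 at Isl2 to 92.1 at Lmx1b and those of replicate 2 from 49.8 to 78.5.

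Sequence separated the 7 common sites into those of unique sequence and those of tandem repeats. The Lhx9 site was 100% identical to itself at a shift of 31 bp and the Isl2 site 87.9% identical at a shift of 80 bp, which spans several copies of its shorter unit, while the best match of the other 5 sites at any shift from 2 to 100 bp was 31.8% to 38.4%. In both tandem sites all of the 50-base sequences occurred in more than 1 place, and in the other 5 none did, while 957 of all 5537 common sites (17.3%) were mostly multi-copy, with more than 50% of these sequences in more than 1 place. Places inside the same site were counted, so a tandem repeat can be multi-copy without any copy elsewhere in the genome. At Lhx9 the exact repeat at 31 bp fixes this share at 100%. Copies elsewhere were not counted separately. Among all common sites at least 52 bp wide, 289 of 5467 (5.29%) were at least 80% identical at some shift. Leaving out mostly multi-copy sites left 5 common sites at 4 of the 9 genes, Lhx5, Lhx6, Lmx1a and Lmx1b, while 37.1% of all genes still had one, a share computed after the data were seen. The share of tandem sites with a SOX word was 6.57% over all common sites, against 69.6% of the 5178 others. At the LIM-homeodomain genes it was 0 of 2 and 4 of 5.

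Within 200 bp around the middle, 4 of the 7 sites (57.1%, 95% Wilson interval 25.0 to 84.2) held a SOX word, against 65.9% of all 5537 common sites (64.7 to 67.2). In windows 2000 bp to each side, 28.6% of the 14 windows of the 9 genes and 44.0% of all windows held one. The interval for 7 sites covers both shares, so no difference from other common sites or from the flanks was detectable at this number. The octamer was present in 1 of 7 sites (14.3%, 2.57 to 51.3), at Lmx1b, against 8.71% of all common sites. The composite word was in 0 of 7 (up to 35.4%), against 6.32%. TAATTA was in 1 of 7 and in 6.56% of all common sites, close to its 6.59% in their flanks, and CAGCTG was in 0 of 7 against 15.1%. The median GC content was 50% in the 7 sites (37.5 to 62.5%) and 50% in all common sites.

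**Figure D5:**
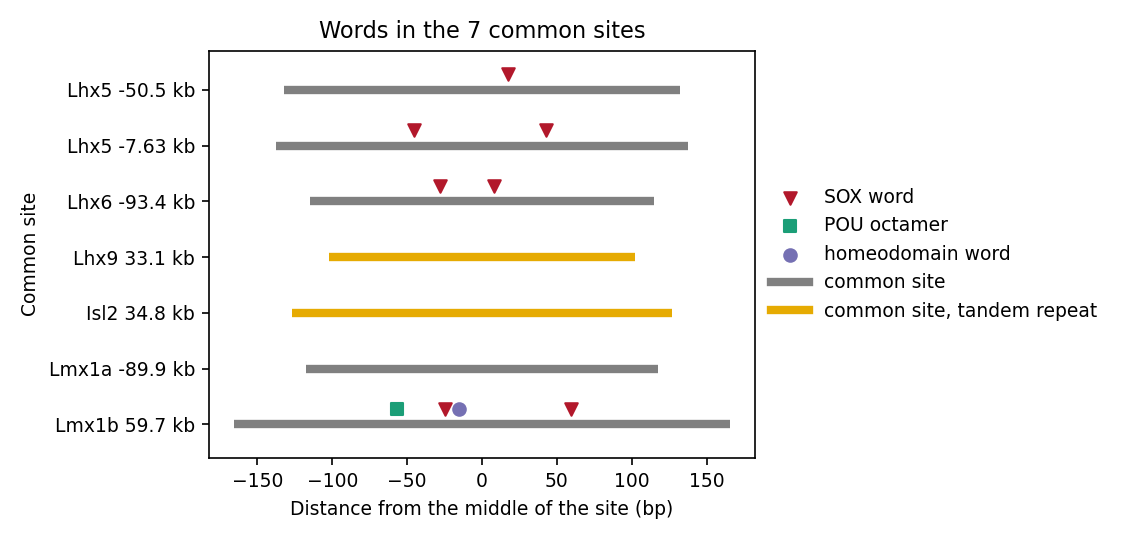
Each bar is 1 common site drawn to scale around its middle (x axis, bp), with SOX words as triangles, the octamer as a square and the homeodomain word as a circle. Words were found at Lhx5, Lhx6 and Lmx1b, the Lmx1b site held the octamer and TAATTA as well, and the yellow bars of Lhx9 and Isl2 are the tandem repeats.

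A stricter threshold kept few of these sites. With a p-value of 1e-10 or less in each list, 2 common sites were left, the Lhx5 site 7.63 kb upstream and the Lmx1b intronic site, and 23.5% of all genes still had one. With the 8096 highest scores of each list, 4 sites at Lhx5, Lhx6 and Lmx1b were left, and 33.1% of all genes had one. Common sites were assigned to 3 of the 9 genes when each went to the nearest start, Lhx5 with 2, Lhx9 with 1 and Lmx1b with 1, and to 16.5% of all genes. Without replicate 1, Lhx9 and Lmx1a had 2 sites each in place of 1, without replicate 2 Isl2 had 2 in place of 1 and Lhx5 had 3 in place of 2, and without replicate 3 the 7 sites were unchanged in number.

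Among 13 other genes of the LIM-domain network, 7 had a common site in their window, with 15 sites in all and a median of 1, against 6 of 9 and a median of 1 for the genes described here and 42.1% of all genes. Without mostly multi-copy sites, 6 of the 13 and 4 of the 9 had one, against 37.1% of all genes. Of the other LIM-homeodomain genes, Lhx2, a paralog of Lhx9 that acts in eye and cortex development, had 1 site 85.3 kb downstream with scores of 131, 112 and 141. Lhx3, a pituitary and motor neuron factor, had 1 site 90.8 kb upstream with scores of 345, 105 and 173, and Lhx4 had none. Of the genes for cofactors and LIM-only proteins, 5 of 10 had a common site. Ldb1, the cofactor that bridges LIM-homeodomain proteins, had 4, one of them 0.0875 kb upstream of its start with scores of 160, 54.6 and 70.4, whereas none of the 9 LIM-homeodomain genes had a common site so close. The other 3 Ldb1 sites were at promoters of other genes, 9130011E15Rik, Pprc1 and Nolc1. Ldb2 had an intronic site with scores of 376, 172 and 290, which were above those of the Lmx1b site in each list. Lmo2, Lmo3, Lmo4, Ssbp2 and Rlim had no common site, Lmo1 had 1, which was 90.8% multi-copy, and Ssbp3 had 2. Ssbp4 had 5, but 1 of these was 23 bp wide, a pair of them lay in the same peaks of replicates 2 and 3, and 1 of the 5 had its nearest start at Ssbp4.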

How the data were processed

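SOX3 ChIP-seq was carried out in 3 replicates of NP cells. The authors aligned reads to mm9 with Bowtie (1.0.0 per the submitters' processing notes) and ran MACS on each replicate separately with input as control, at a p-value of 1e-05 (the MACS version is not given in the sources used here). The score deposited by the authors for each peak is 10 times the negative log10 of the p-value, with no normalization between replicates. Depth is unknown, the input was not analysed here, and no peaks were called again.

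Common sites were the stretches, 1 bp or longer, on which peaks of all 3 replicates overlapped, and overlapping peaks of any replicate were merged into regions. Genes, transcripts and starts came from GENCODE vM1 (22367 protein-coding genes, without mitochondrial ones) on the NCBIM37 reference, the same assembly as mm9. Distances were measured from the middle of a site to the gene's start. Words were searched on both strands in 200 bp around the middle and 2000 bp to each side. The composite word left several bases of its SOX part free, so a match need not hold a SOX word. Repetition was measured by how many of a site's 50-base sequences occur in more than 1 place of the reference (mostly multi-copy above 50%, with 70 common sites too short to measure and kept). A second place could lie inside the same site. The tandem measure, the best identity of a site with itself at a shift of 2 to 100 bp, and its bound of 80% were chosen after the data were seen. Intervals for shares are 95% Wilson intervals and cover counting error only.

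The 9 genes and the lists were chosen with earlier results of these data known, and there is 1 group, so counts were read against all genes and no test was run. All common sites of the 9 genes are given, single-replicate and 2-replicate regions by counts and by the one closest to the start. Sequences are those of the site of each gene with the highest lowest percentile. The other Lhx5 site, the other regions named, and the sequence of the Lhx5 region with the composite word were added after values were seen. Alternatives were a stricter p-value (1e-10 or less), lists cut to the same number of peaks, a reciprocal overlap of 50%, windows of 50 and 250 kb, the nearest start, merged regions, each replicate left out, no multi-copy sites, and words in 100 bp or the whole site. The steps were tested on made-up data with known answers, and 8 of 8 recovered them. The tools were Python 3.11.15, pysam 0.24.0, matplotlib 3.10.9, scipy 1.17.1 and numpy 2.4.6.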

Additional observations from a re-analysis of the deposited data

How the results depend on the processing

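The 7 common sites, the 6 genes that had one and the 42.1% of all genes with one depended on the threshold and the window. A p-value of 1e-10 or less gave 2 sites, 2 genes and 23.5%, equal numbers of peaks gave 4 sites, 3 genes and 33.1%, and a reciprocal overlap of 50% gave 6 sites, 5 genes (without Isl2) and 38.6%. Windows of 50 kb gave 4 sites, 4 genes and 28.7%, windows of 250 kb gave 11 sites, 8 genes (all but Isl1) and 66.5%, and assignment to the nearest start gave 4 sites, 3 genes and 16.5%. Merged regions gave 7, 6 and 42.2%. Leaving out 1 replicate gave 7 to 9 sites, 6 genes each time and 42.9% to 55.0% of all genes. Without mostly multi-copy sites, 5 sites, 4 genes and 37.1% were left, the last added after the data were seen. Lmx1b had 1 common site and Isl1 had 0 under each of these settings that gave values per gene. The share of sites with a SOX word was 57.1%, was 100% of 2 sites at a p-value of 1e-10 or less, stayed at 57.1% in 100 bp or the whole site, and ran from 55.6% to 66.7% with a replicate left out. No paired analysis was possible because there is 1 ChIP group and no comparison between groups. The lists hold no read counts, so a window without a peak may hold binding below the threshold, and the 3 replicates come from 1 cell line.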
